A study of Mus musculus with 4 samples.

Results

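The genes described here are 49 genes of the mouse DNA replication machinery, taken as a list of known replication genes by name, with no measured value in the rule. They are 49 of the 21887 protein-coding genes placed on autosomes or sex chromosomes. For each gene the highest-scoring ATAC-seq summit within 1000 bp of either gene end was sought in each of 4 deposited summit lists. In ATAC-seq the Tn5 transposase inserts adapters where chromatin is open, and a summit is the 1-bp position of strongest signal in a called peak. The lists came from CD93-positive haematopoietic stem cells (HSCs, replicates 1 and 2) and CD93-negative HSCs (replicates 1 and 2) sorted from the bone marrow of male wild-type C57BL/6 mice aged 8 weeks. All cells passed 1 stem-cell gate: LSK (no lineage markers, with Sca-1 and Kit), without CD34, CD48 or Flt3, and with Slam1. Neither group carries a modified allele or was given an agent, per the labels. Marrow was flushed from pooled femora and tibiae, the number of mice is not given in the sources used here, and nothing says that replicates came from separate mice, so the spread between them may be technical.

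The list of CD93-positive replicate 1 held 21 summits, and the longest, of CD93-negative replicate 1, held 7989. The longest list was 11.2 times as long as that of CD93-positive replicate 2 and 2.90 times as long as that of CD93-negative replicate 2. The deposited names of the 2 lists titled CD93-negative read HSC and do not mention CD93, and those of the 2 titled CD93-positive read CD93. The groups here follow the titles. Read depth is unknown. The score of a summit, on a −log10 scale (whether of p or of q is not stated), was set by the authors' peak caller against the background of that library. It ranks summits within a list and is not scaled between lists. Of 16 HSC marker genes, Tal1 and Lyl1 were the 2 with a summit at a gene end, both in the longest list alone, and the sort genes Kit, Ly6a and Slamf1 had none in any list. No gene-end summit was listed for any of 6 erythroid, 6 B cell, 5 T and NK cell, 6 myeloid and 5 endothelial markers. Summits at gene ends therefore do not check the sort.

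Replication begins with licensing in G1, when the origin recognition complex with Cdc6 and Cdt1 loads the MCM helicase onto DNA. In S phase Cdc7 and cyclin-dependent kinases turn it into the active Cdc45-MCM-GINS helicase, polymerases copy the strands with the Pcna clamp, and ribonucleotide reductase supplies deoxynucleotides. Many of these genes are known targets of E2F factors, and the RB family and the DREAM complex are known to repress such targets in quiescent cells. HSCs of this gate are known to be mostly quiescent, and an open promoter is no measure of transcription or of division.

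Promoters of 8 of the genes are shown because the results turn on them. The first 2 are the genes with both an annotated start and a summit in a CD93-positive library. The next 4, Mcm5, Mcm6, Pola1 and Orc3, hold an E2F word and a summit near their start in CD93-negative replicate 1. Orc1 carries its summit at a start far from the ends of its annotated gene. Gins3 holds an E2F word and had no summit near it in any list. Each line gives the 250 bases before the annotated start, 5′ to 3′ on the gene's strand, from RefSeq (build GRCm38.p6). Capitals mark matches to the E2F, NF-Y, Sp1 or CHR words spelled out with the motif counts. In Gins3 an NF-Y and an Sp1 match overlap.
Orc6: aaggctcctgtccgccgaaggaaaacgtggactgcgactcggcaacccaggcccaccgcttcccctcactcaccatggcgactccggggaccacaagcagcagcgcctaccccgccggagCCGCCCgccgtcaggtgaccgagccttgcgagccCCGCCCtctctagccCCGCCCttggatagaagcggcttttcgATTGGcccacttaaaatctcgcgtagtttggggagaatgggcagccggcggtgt
Dut: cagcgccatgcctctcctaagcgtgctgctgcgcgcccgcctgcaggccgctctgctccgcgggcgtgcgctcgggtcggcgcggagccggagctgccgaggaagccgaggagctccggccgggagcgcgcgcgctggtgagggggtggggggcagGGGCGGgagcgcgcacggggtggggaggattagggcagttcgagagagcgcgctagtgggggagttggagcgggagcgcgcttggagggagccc
Mcm5: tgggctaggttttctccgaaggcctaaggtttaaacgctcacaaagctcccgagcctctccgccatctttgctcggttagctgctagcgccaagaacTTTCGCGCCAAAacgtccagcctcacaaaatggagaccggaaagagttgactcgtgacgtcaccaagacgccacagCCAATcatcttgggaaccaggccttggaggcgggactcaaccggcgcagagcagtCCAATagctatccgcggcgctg
Mcm6: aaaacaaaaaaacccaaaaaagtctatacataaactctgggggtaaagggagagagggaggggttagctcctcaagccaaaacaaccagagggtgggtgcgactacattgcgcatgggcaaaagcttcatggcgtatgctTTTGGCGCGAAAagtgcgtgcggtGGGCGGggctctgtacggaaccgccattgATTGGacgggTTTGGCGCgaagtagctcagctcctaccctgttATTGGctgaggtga
Pola1: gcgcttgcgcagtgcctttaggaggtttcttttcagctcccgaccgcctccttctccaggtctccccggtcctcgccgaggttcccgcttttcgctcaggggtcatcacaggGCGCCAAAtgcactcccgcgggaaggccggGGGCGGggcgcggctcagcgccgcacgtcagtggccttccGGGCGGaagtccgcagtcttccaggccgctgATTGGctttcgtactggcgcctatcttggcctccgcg
Orc3: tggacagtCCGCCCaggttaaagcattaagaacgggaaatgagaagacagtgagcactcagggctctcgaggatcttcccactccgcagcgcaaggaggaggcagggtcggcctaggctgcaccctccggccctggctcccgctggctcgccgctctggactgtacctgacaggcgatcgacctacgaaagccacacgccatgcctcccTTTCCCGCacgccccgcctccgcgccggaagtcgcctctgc
Orc1: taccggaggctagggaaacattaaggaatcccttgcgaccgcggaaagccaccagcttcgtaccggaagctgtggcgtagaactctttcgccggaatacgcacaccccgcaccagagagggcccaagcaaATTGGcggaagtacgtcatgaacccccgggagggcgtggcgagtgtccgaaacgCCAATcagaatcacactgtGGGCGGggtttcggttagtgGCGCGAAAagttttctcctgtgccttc
Gins3: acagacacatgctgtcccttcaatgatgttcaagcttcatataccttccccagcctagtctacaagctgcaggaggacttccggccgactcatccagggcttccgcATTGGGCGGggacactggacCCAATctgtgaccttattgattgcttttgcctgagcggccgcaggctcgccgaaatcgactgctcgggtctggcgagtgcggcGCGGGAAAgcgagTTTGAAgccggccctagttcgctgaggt

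Locations of these stretches, in the same build, are chr8:85299382-85299631 (Orc6, plus strand), chr2:125247265-125247514 (Dut, plus strand), chr8:75109259-75109508 (Mcm5, plus strand), chr1:128359706-128359955 (Mcm6, minus strand), chrX:93632156-93632405 (Pola1, minus strand), chr4:34614943-34615192 (Orc3, minus strand), chr4:108579204-108579453 (Orc1, plus strand) and chr8:95633309-95633558 (Gins3, plus strand).

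Most replication genes had a listed open site at a gene end in the longest CD93-negative list, and few did in the CD93-positive lists. In CD93-positive replicates 1 and 2, 0 and 3 of the 49 genes had a gene-end summit, against 41 and 18 in CD93-negative replicates 1 and 2. Among the other 21838 protein-coding genes the share with a gene-end summit was 0.0183% and 3.21% in replicates 1 and 2 of CD93-positive cells, and 32.1% and 12.9% in replicates 1 and 2 of CD93-negative cells. As shares, the replication genes stood at 0% (95% interval 0 to 7.25) and 6.12% (1.28 to 16.9) in the CD93-positive libraries, and at 83.7% (70.3 to 92.7) and 36.7% (23.4 to 51.7) in the CD93-negative ones. Intervals are exact Clopper-Pearson intervals over genes and cover counting error only. The interval of the replication genes contained the share of other genes in CD93-positive replicate 2 and lay above it in both CD93-negative libraries. Genes are not replicates of a library, and these were chosen with earlier results known. The intervals here and below are therefore a description and no test.

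Both CD93-positive libraries lay below both CD93-negative ones, for the replication genes and for other genes. The mean share was 3.06% ± 4.33 in CD93-positive and 60.2% ± 33.2 in CD93-negative libraries (SD, n = 2 each), a difference of -57.1 percentage points for replication genes. Without CD93-negative replicate 1 it was -33.7 points, and without CD93-negative replicate 2 it was -80.6. For other genes the means were 1.61% ± 2.26 and 22.5% ± 13.6 (SD, n = 2 each), a difference of -20.9 points. No p is given for a score over a named list, and an exact permutation test of 2 libraries against 2 cannot go below p = 0.333. List length moves with the groups, and the part of CD93 status and the part of list length in this difference cannot be told apart.

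**Figure D1:**
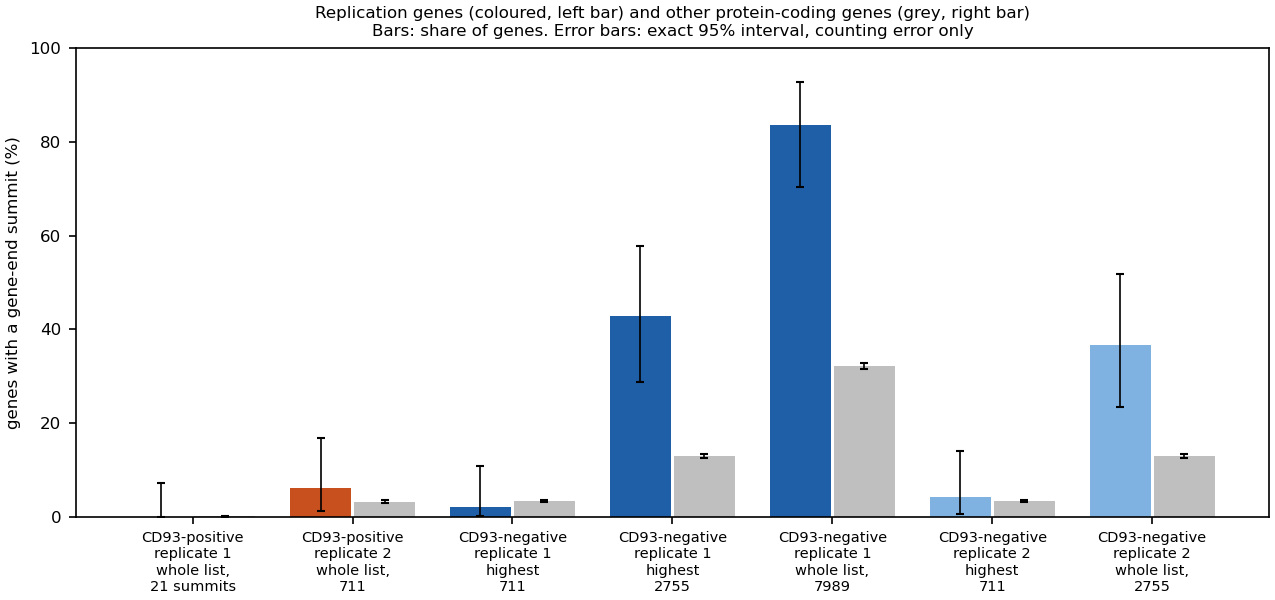
Share of genes with a summit within 1000 bp of a gene end (y axis, %), by library and by number of highest-scoring summits used (x axis). Coloured bars are the 49 replication genes, grey bars the other protein-coding genes, and error bars exact 95% intervals. The coloured bar reaches 83.7% in the whole list of CD93-negative replicate 1 and stands at 6.12% or below in the 3 bars at the length of the CD93-positive replicate 2 list.

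At equal list lengths few of these genes were reached in any library until the lists grew longer. When each list was cut to the length of that of CD93-positive replicate 2, 3 genes were reached there (Orc6, Dut and Ccna2), against 1 in CD93-negative replicate 1 (Gins2) and 2 in CD93-negative replicate 2 (Gins2 and Rpa2). Other genes were reached at 3.21%, 3.28% and 3.37% in the same order. The counts of replication genes are 6.12%, 2.04% (0.0517 to 10.9) and 4.08% (0.498 to 14.0), and each interval contains the share of other genes. When CD93-negative replicate 1 was cut to the length of replicate 2, 21 replication genes were reached in it (42.9%, 28.8 to 57.8), against 12.9% of other genes. The whole list of replicate 2 reached 18, also against 12.9% of other genes. These sets had 11 genes in common, 52.4% of the 21 and 61.1% of the 18. The overlap of other genes at that length was not counted, so this one cannot be called high or low. No CD93-positive list is long enough for a comparison at that length.

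Replication genes entered the longest list through most of its range of scores, and hardly at its lowest scores. In CD93-negative replicate 1 the share was 8.16% of replication genes and 4.66% of other genes with the 1000 highest summits, 57.1% and 16.3% with 3500, and 83.7% and 27.7% with 6500, after which no further replication gene was reached. Of the 41 genes reached there, 13, 14, 12 and 2 lay in the 4 equal classes of all genes reached, ranked from the highest score down. In CD93-negative replicate 2 the 18 genes were spread as 2, 3, 6 and 7 over the same classes of that list. In CD93-negative replicate 1 the median score was 30.0 for replication genes and 23.8 for the other genes reached. In CD93-negative replicate 2 it was 8.15 for replication genes and 10.1 for other genes. In CD93-positive replicate 2 the 3 replication genes had a median of 8.38 and other genes 7.95. The order of the medians therefore differed between the whole CD93-negative lists. With CD93-negative replicate 1 cut to the length of replicate 2, its medians were 40.3 for replication genes and 42.8 for other genes. That is the order seen in CD93-negative replicate 2.

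**Figure D2:**
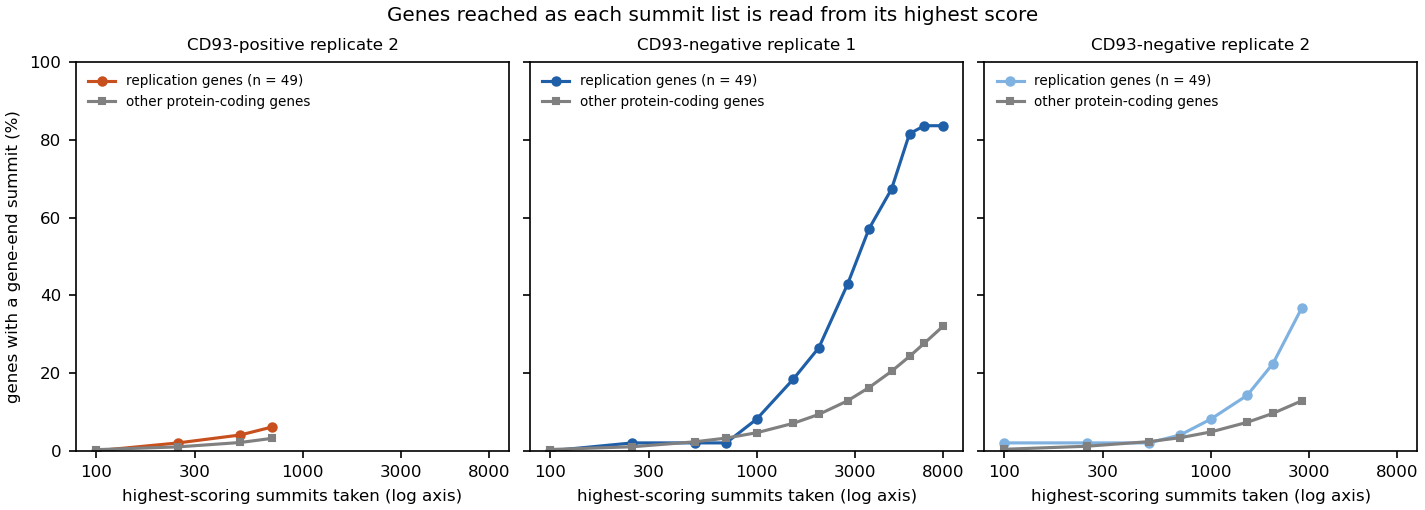
Share of genes with a gene-end summit (y axis, %) as each list is read from its highest score down (x axis, number of summits, log axis), for 1 CD93-positive and 2 CD93-negative libraries. Coloured lines are replication genes and grey lines other protein-coding genes. In CD93-negative replicate 1 the lines stand at 8.16% and 4.66% with 1000 summits and at 57.1% and 16.3% with 3500.

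The 18 genes of CD93-negative replicate 2 were all among the 41 of replicate 1. They make up 43.9% of the genes of replicate 1, while for other genes 39.6% of those of replicate 1 were in replicate 2 and 98.5% the other way. In CD93-negative replicate 1, genes also listed in replicate 2 had a median score of 33.9 and genes not listed there 24.2. For other genes these medians were 36.9 and 17.9. Over the 18 genes, scores of the 2 CD93-negative libraries had a Spearman's rho of 0.583, against 0.635 over 2769 other genes, as a description of sites that share their genome sequence. Summits of the 2 libraries lay a median of 65 bp apart (3 to 346), and 17 of 18 within 250 bp.

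**Figure D3:**
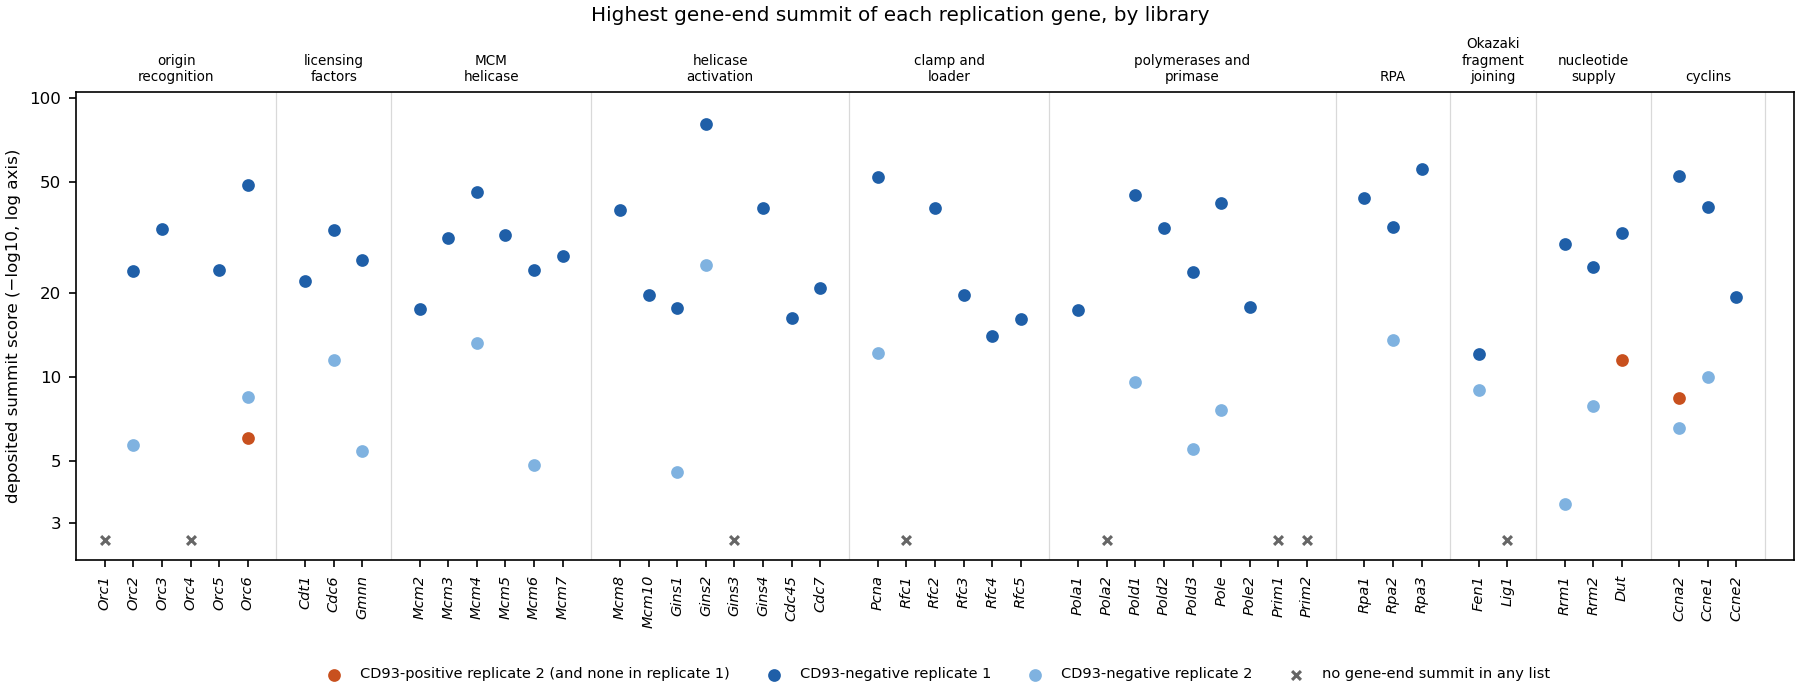
Deposited score of the highest gene-end summit (y axis, −log10, log axis) for each of the 49 replication genes (x axis, grouped by role), with 1 point per library that lists one. Crosses mark the 8 genes with no gene-end summit in any list. Scores of different libraries are not scaled to each other. Orc6, Dut and Ccna2 are the genes with a CD93-positive point.

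The counts by role group below stand beside shares of other genes of 0.0183% and 3.21% in CD93-positive replicates 1 and 2. In CD93-negative replicates 1 and 2 these shares were 32.1% and 12.9%. Of the origin recognition complex, the 6-subunit ATPase that marks origins, 4 genes were listed in CD93-negative replicate 1, 2 of them (Orc2 and Orc6) in replicate 2, and 1 in CD93-positive replicate 2. Orc6, the smallest subunit (gene ID 56452, chromosome 8, 85299632 to 85308279, build GRCm38.p6), scored 6.04 in CD93-positive replicate 2 and was not listed in replicate 1, against 48.7 and 8.47 in CD93-negative replicates 1 and 2. Its 3 summits, at 85299746, 85299634 and 85299631, lay 114, 2 and -1 bp from the annotated start on its strand. The stretch printed above holds 3 matches to GGGCGG, each read as CCGCCC on the gene's strand, 1 match to CCAAT and no E2F word. Its neighbour Vps35, a subunit of the retromer sorting complex, ends 229, 117 and 114 bp from the same summits, so the signal of the pair cannot be told apart. Orc2 scored 24.0 and 5.68 in CD93-negative replicates 1 and 2. Orc3 (33.8) and Orc5 (24.2) were listed in CD93-negative replicate 1 alone, and Orc1 and Orc4 had no gene-end summit.

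All 3 licensing factors were listed in CD93-negative replicate 1 (other genes 32.1%). None was in a CD93-positive library, which for 3 genes is near the 0.0183% and 3.21% of other genes there. Cdc6, the ATPase that joins ORC at origins, scored 33.5 and 11.5 in CD93-negative replicates 1 and 2. Gmnn, or geminin, which binds and inhibits Cdt1 after licensing, scored 26.2 and 5.44. Cdt1, the MCM loader that it inhibits, scored 22.1 in CD93-negative replicate 1 and was absent from replicate 2. The inhibitor and one of the loading factors were thus listed in both CD93-negative libraries.

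The 6 genes of the MCM helicase were all listed in CD93-negative replicate 1 (other genes 32.1%), with scores of 17.5 to 45.95. None was in a CD93-positive library, where other genes stood at 0.0183% and 3.21%. For 6 genes that is near the share of other genes. Mcm4 had the highest score of the 6, 45.95 and 13.2 in CD93-negative replicates 1 and 2. Its summits lay 136 and 56 bp from the end of Prkdc, which encodes the catalytic subunit of DNA-dependent protein kinase. Mcm6 was the other subunit in both, with 24.2 and 4.82. Mcm5 (32.2), Mcm3 (31.5), Mcm7 (27.1) and Mcm2 (17.5) were listed in replicate 1 alone. Mcm7 had 2 gene-end summits there, scoring 27.1 and 14.3, which lay 741 and 49 bp from the end of Ap4m1, an adaptor complex subunit. It was the only replication gene with more than 1 gene-end summit in that list.

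Of 8 genes grouped around helicase activation, 7 were listed in CD93-negative replicate 1 and 2 in replicate 2. Gins2, a subunit of the GINS complex, had the highest score of all the replication genes in both, 80.4 and 25.2. It ranked 190 among the 7989 summits of CD93-negative replicate 1 and 55 in the shorter list of replicate 2. A long non-coding RNA gene, Gm10614, ends 64 and 61 bp from these summits. The other GINS genes were spread widely: Gins1 scored 17.7 and 4.55 in the CD93-negative libraries, Gins4 scored 40.3 in replicate 1 alone, and Gins3 was listed nowhere. The nearest summit to Gins3 lay 162524 bp away in CD93-negative replicate 1. The 4 genes of this complex thus ran from the highest score of any replication gene to none. Mcm8, an MCM paralogue known for its part in recombination repair, scored 39.5 in CD93-negative replicate 1. In the same list Cdc7, the kinase that phosphorylates MCM, scored 20.8, Mcm10, an origin firing factor, 19.6, and Cdc45, the helicase cofactor, 16.3.

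Pcna, the sliding clamp of the polymerases, scored 52.1 and 12.2 in CD93-negative replicates 1 and 2 and was in no CD93-positive list. The summits lay 93 and 27 bp outside the gene and 65 and 131 bp from the end of its neighbour Cds2, a phospholipid synthesis gene. None of the clamp loader genes was listed in CD93-negative replicate 2, where 12.9% of other protein-coding genes were. For so few genes that is near the share of other genes. Rfc2 (40.3), Rfc3 (19.6), Rfc5 (16.1) and Rfc4 (14.0) were found in CD93-negative replicate 1 and Rfc1 in no list by gene ends.

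Of 9 polymerase and primase genes, 6 were listed in CD93-negative replicate 1 and 3 in replicate 2. The catalytic subunit of polymerase delta, Pold1, scored 44.9 and 9.56, the catalytic subunit of polymerase epsilon, Pole, 42.1 and 7.60, and the accessory subunit Pold3 23.7 and 5.50 in CD93-negative replicates 1 and 2. Pold2 (34.0), Pole2 (17.7) and Pola1 (17.4) were in replicate 1 alone. Of the 4 genes of the polymerase alpha-primase complex, which lays the primers, Pola1 was the single one listed. Pola2, Prim1 and Prim2 had no gene-end summit in any list.

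The 3 genes of RPA, the single-strand binding complex, had a median score of 43.7 in CD93-negative replicate 1, the highest of the 10 role groups. Rpa3 scored 55.7, Rpa1 43.7 and Rpa2 34.3 there. Rpa2, the lowest of the 3, was the one also in CD93-negative replicate 2 (13.6). Rpa3 and Rpa1 lay 10 and 8 bp from the ends of Umad1 and Smyd4. Of the genes that finish Okazaki fragments, Fen1, the flap endonuclease, scored 12.1 and 8.99 in CD93-negative replicates 1 and 2, and Lig1, the ligase, had no gene-end summit. Fen1 had the lowest score of the 41 genes in replicate 1 and was also listed in replicate 2.

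The 3 nucleotide supply genes among the 49, which are only a part of that pathway, were all listed in CD93-negative replicate 1. Dut, the dUTPase that keeps uracil out of DNA (gene ID 110074, chromosome 2, 125247248 to 125259049), scored 11.5 in replicate 2 of CD93-positive cells, against 32.8 in replicate 1 of CD93-negative cells, and was absent from CD93-positive replicate 1 and CD93-negative replicate 2. The summits, at 125247512 and 125247473, lay -3 and -42 bp from its annotated start, in the stretch printed above, which holds a single GGGCGG word. In CD93-negative replicate 2 the nearest summit to the gene lay 599933 bp away. This pattern, in CD93-positive replicate 2 and CD93-negative replicate 1 but not CD93-negative replicate 2, was found at 92 other genes (0.421%). Dut ranked 155 in the list of CD93-positive replicate 2, ahead of Ccna2 (334) and Orc6 (527). Scores are not scaled between lists. Counted from the highest score, Dut stood at 21.8% of the CD93-positive replicate 2 list and 28.4% of the CD93-negative replicate 1 list. Ccna2 stood at 47.0% and 10.5%, and Orc6 at 74.1% and 12.8%, in lists of unlike length. The ribonucleotide reductase genes were listed in both CD93-negative libraries and in no CD93-positive one. This pattern was found at 16 of the 49 genes, these included, and at 9.90% of other genes. Rrm1, the large subunit, scored 30.0 and 3.50 in CD93-negative replicates 1 and 2, and Rrm2, the S-phase small subunit, 24.7 and 7.83.

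The 3 cyclin genes were listed in CD93-negative replicate 1. Ccna2, cyclin A2, which drives S phase (gene ID 12428, chromosome 3, 36564865 to 36573038), scored 8.38 in CD93-positive replicate 2 and was not listed in replicate 1, against 52.5 and 6.55 in CD93-negative replicates 1 and 2. The summits lay inside the gene, 913, 939 and 890 bp from its end, and thus just inside the window of 1000 bp. In CD93-negative replicate 2 the summit was also 994 bp from the end of Bbs7. Ccne1, a cyclin of the G1/S transition, scored 40.4 and 10.00 in CD93-negative replicates 1 and 2, and Ccne2, its paralogue, 19.3 in replicate 1 alone. The summit of Ccne2 lay 896 bp inside the gene, and Lig1 was just outside the window, with summits 1544 and 1531 bp from its end in CD93-negative replicates 1 and 2.

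Summits lay close to the starts of transcription units where RefSeq promoters give a start, as they do for 39 of the 49 genes. Of the 41 genes listed in CD93-negative replicate 1, 32 had such a start and all 32 summits lay within 1000 bp of it, 31 within 250 bp and 23 within 100 bp. The median position was -44.5 bp (-480 to 228), and 24 of 32 lay before the start. In CD93-negative replicate 2, 12 of 12 lay within 1000 bp, 11 within 250 bp and 5 within 100 bp, at a median of -14 bp (-523 to 192). Regardless of side, the median distance was 51 bp in CD93-negative replicate 1 and 137.5 bp in replicate 2. Summits were kept only within 1000 bp of a gene end, and most of these starts lie at or near a gene end. The counts within 1000 bp were thus largely set by the rule. Positions were not measured for other genes, so closeness to a start is not shown to be particular to replication genes.

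The rule on gene ends misses starts that lie inside the annotated gene. A count over gene ends or annotated starts, chosen after seeing the data, gave 3 genes in CD93-positive replicate 2 (other genes 3.43%), against 45 in CD93-negative replicate 1 (34.6%) and 20 in CD93-negative replicate 2 (13.9%). The 4 genes added were Orc4 (score 47.95, -23 bp from a start), Orc1 (30.7, -54 bp), Lig1 (29.5, -107 bp) and Rfc1 (11.7, -10 bp) in CD93-negative replicate 1. Orc1 and Lig1 were also added in CD93-negative replicate 2, with 5.33 and 8.36. The summit of Orc1 at 108579400 lies in the stretch printed above and 3695 bp from the gene's end. With starts included, 4 genes were in no list: Gins3, Pola2, Prim1 and Prim2. Origin recognition then had a summit at each of its 6 genes in CD93-negative replicate 1. Prim2 has no annotated start in that table.

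**Figure D4:**
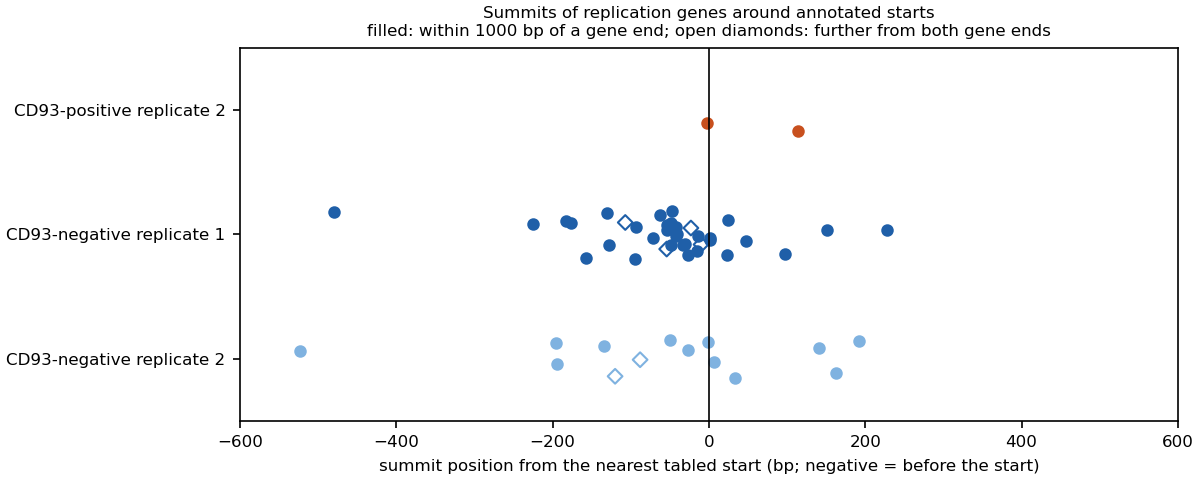
Position of each replication gene's summit relative to the nearest annotated start (x axis, bp, negative before the start), by library (rows), for genes with a start in RefSeq. Filled points lie within 1000 bp of a gene end and open diamonds do not. Points cluster within 250 bp of the start, and the 4 diamonds of CD93-negative replicate 1 are Orc4, Orc1, Lig1 and Rfc1.

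Many summits served 2 genes. In CD93-negative replicate 1, 13 of the 41 genes (31.7%) had a summit that also lay within 1000 bp of the end of another protein-coding gene, and so did 32.3% of the other genes reached. In CD93-negative replicate 2 the shares were 38.9% of the 18 replication genes and 38.5% of the other genes reached. For 8 genes of CD93-negative replicate 1, Cdc45, Fen1, Mcm4, Mcm7, Orc3, Pcna, Rpa1 and Rpa3, each gene-end summit lay nearer to the end of the protein-coding neighbour. The end of a long non-coding RNA gene lay nearer than the gene's own at Gins2, Gins4, Orc5, Rfc5 and Ccne2. Which gene of a pair a summit belongs to was not tested. The pairs included Orc3 with Rars2 (mitochondrial arginyl-tRNA synthetase), Mcm8 with Trmt6 (a tRNA methyltransferase subunit), Cdc45 with Ufd1 (a cofactor of the p97 ATPase), and Pole with Pxmp2 (a peroxisomal membrane protein).

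Promoters of the replication genes held E2F words more often than other promoters did, as a description with no test. These words (TTTCCCGC, TTTGGCGC, TTTCGCGC or TTTGCCGC, either strand) were in 16 of 48 promoters of 300 bases (33.3%), 250 before and 50 after the start, which belong to 39 genes. They were in 2.79% of 21215 promoters of other protein-coding genes, and in 4.52% of the 7124 among these whose gene had a gene-end summit in replicate 1 of CD93-negative cells. CCAAT, the NF-Y word, was in 54.2% of promoters of replication genes, 38.2% of all others and 40.8% of others with a summit. GGGCGG, the Sp1 word, was in 72.9%, 46.1% and 68.8%. The CHR words TTTGAA and TTCGAA, known from DREAM targets, were in 18.8%, 17.6% and 13.3%. Every word was searched on both strands, and no E2F match here overlapped a GGGCGG match. A match is a string of letters and not a bound site.

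The 16 genes with an E2F word came from 7 of the 10 role groups and included 4 MCM genes (Mcm3, Mcm5, Mcm6 and Mcm7), Cdc6, Cdt1, Orc1, Orc3 and 4 polymerase genes (Pola1, Pold1, Pold3 and Pole2). Mcm6 held 3 matches, at -110, -106 and -47 from the start, and Mcm5 2 overlapping ones, at -153 and -149. In both genes the overlapping pair forms 1 run of capitals in the lines above. In CD93-negative replicate 1 a summit lay a median of 80 bp (24 to 342) from the 21 matches with a summit within 1000 bp of the start. By gene ends, 13 of the 16 genes with an E2F word and 19 of the 23 without were listed in CD93-negative replicate 1, and 4 of 16 and 8 of 23 in replicate 2. In CD93-positive replicate 2, 0 of 16 and 2 of 23 were listed. Median scores were 27.1 with the word and 24.7 without in CD93-negative replicate 1, and 7.53 with it and 8.73 without in replicate 2, the opposite order.

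Promoters of replication genes were rich in CpG. The median ratio of observed to expected CpG was 0.875 in their 48 promoters, 0.566 in promoters of other genes, 0.817 in other genes reached in CD93-negative replicate 1 and 0.348 in other genes with no gene-end summit in any list. Median GC content was 62.3%, 56.3%, 62.3% and 52.7% in the same order.

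**Figure D5:**
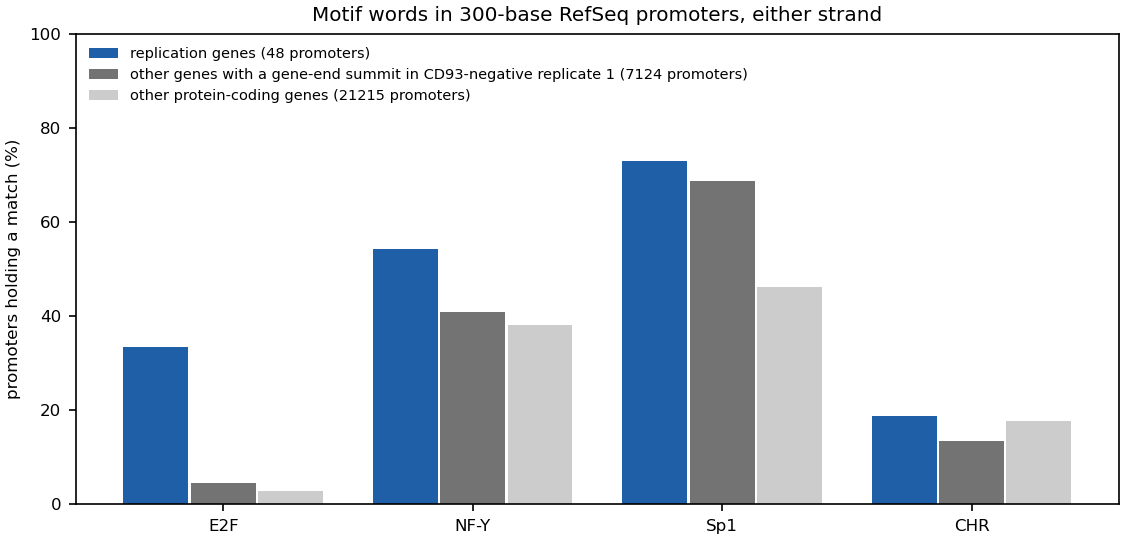
Share of 300-base RefSeq promoters holding a match on either strand (y axis, %) for 4 sets of words (x axis). Bars are replication genes, other genes reached at a gene end in CD93-negative replicate 1, and all other protein-coding genes. The E2F bars stand at 33.3%, 4.52% and 2.79%.

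A second list of 48 replication genes that are not among the 49, covering further polymerase subunits, firing factors, chromatin assembly, nucleotide synthesis and mismatch repair, was read the same way. In CD93-positive replicates 1 and 2, 0 and 3 of them (0% and 6.25%) had a gene-end summit. In CD93-negative replicates 1 and 2 the counts were 37 and 17 (77.1% and 35.4%). Among protein-coding genes outside the 49 the shares were 0.0183% and 3.21%, then 32.1% and 12.9%, in the same order. List length moves with the groups here too. The genes listed in CD93-positive replicate 2 included Dbf4, the activating subunit of Cdc7 (6.55, against 32.4 in CD93-negative replicate 1 alone). They also included Pole4, a polymerase epsilon subunit (6.25, against 38.2 and 19.8 in CD93-negative replicates 1 and 2). Of 20 genes of E2F, RB and DREAM proteins, 0 and 2 (0% and 10%) were listed in CD93-positive replicates 1 and 2. In CD93-negative replicates 1 and 2, 16 and 5 (80% and 25%) were listed, beside the same shares of genes outside the 49. The 2 of CD93-positive replicate 2 were Rbbp4 and Lin52. Rbbp4, a histone-binding protein of DREAM and several chromatin complexes, scored 14.5, against 121.3 and 22.8 in CD93-negative replicates 1 and 2. Lin52, a DREAM core subunit, scored 6.94, against 48.2 and 16.3.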

How the data were processed

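ATAC-seq summit lists of 2 CD93-positive and 2 CD93-negative HSC libraries were analysed. Bowtie2 and MACS2, with mm10, are named in the submitters' processing notes. Versions, read filters, any Tn5 shift and the calling threshold are not stated there. The authors deposited 1 list per library, not pooled, whose scores are −log10 values. Groups and replicate numbers follow the titles, although the deposited names of the CD93-negative lists read HSC. Summit names carry the numbers 2 and 3 for the CD93-positive and 1 and 3 for the CD93-negative replicates, so both replicates titled 2 carry a 3. No label says that a shared number marks a shared mouse or day. Depth is unknown.

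Gene ends were read from RefSeq gene annotation of GRCm38.p6 (mm10), without exons or UTRs. Starts and promoters, 250 bases before to 50 after the start, came from RefSeq in the same build. All 49 genes matched by symbol, and 39 have a promoter entry. A gene was called when a summit lay within 1000 bp of either end, and its highest-scoring summit was kept. Python 3.11.15, numpy 2.4.6, pandas 2.3.3, scipy 1.17.1 and matplotlib 3.10.9 were used, and the assignment was tested on simulated data. No test was made between groups. Alternatives were windows of 500 and 2500 bp, gene bodies, score minimums of 5 and 10, equal list lengths, nearest ends, annotated starts and leaving out each library.

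The rule for values was to give those of genes in a CD93-positive or in both CD93-negative lists, of the highest gene of each role group, and of genes more than 1000 and up to 2500 bp from a summit. Other values of the 49 were added after they were seen. The genes and lists were chosen with earlier results of these data known. Values of 1 gene of the second replication list are not reported here.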

Additional observations from a re-analysis of the deposited data

How the results depend on the processing

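Of 79 recomputed values, 7 moved (a count by over 1.5 times, another value by more than its spread) and 0 changed sign. Leaving out 1 of 2 libraries cannot pass that margin, nor can a count of 0 move under a stricter filter, so such values say nothing about stability. With a score of at least 10, the replication genes numbered 1 in CD93-positive replicate 2 (other genes 0.989%) and 5 in CD93-negative replicate 2 (other genes 6.49%), where the median score became 13.2. At the length of the CD93-positive replicate 2 list they numbered 1 in CD93-negative replicate 1 (other genes 3.28%) and 2 in CD93-negative replicate 2 (3.37%). At the length of the CD93-negative replicate 2 list they numbered 21 in CD93-negative replicate 1 (other genes 12.9%). The second replication list numbered 5 in CD93-positive replicate 2 with a window of 2500 bp. Fewer summits or a wider window give these changes by construction. The group difference of -57.1 points ranged from -33.7 (without CD93-negative replicate 1) to -80.6 (without CD93-negative replicate 2) when 1 library was left out. With the replicate number as a block it was -57.1, and -83.7 and -30.6 within numbers 1 and 2, where no test was made. Counted only for the nearest protein-coding gene end, the replication genes numbered 33 in CD93-negative replicate 1 (other genes 27.3%) and 16 in replicate 2 (other genes 10.4%). Depth, unknown here, and list length limit what the CD93-positive libraries can show.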
